A study of Mus musculus with 18 samples.

Results

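Bile acid and organic anion transporters were followed in mouse liver as 10 transcripts: the uptake carriers Slc10a1, Slco1b2, Slco1a1 and Slco1a4, the canalicular pumps Abcb11, Abcb4 and Abcc2, and the basolateral exporters Abcc3, Abcc4 and Slc51b. They were chosen by gene symbol, without reference to a threshold on their values but with earlier results of these data known. All 10 of the 10 symbols were found among the 33235 genes of both deposited tables. The livers came from wild-type mice given a GalNAc-linked control antisense oligonucleotide (ASO; GalNAc-conASO) or one against Mdm2 (GalNAc-Mdm2ASO), on a diet labelled HFHC or a diet labelled CDAHFD. GalNAc directs the oligonucleotide to hepatocytes through the asialoglycoprotein receptor. Mdm2 is the ubiquitin ligase that targets p53 to the proteasome. CDAHFD denotes a high-fat diet that lacks choline, with defined amino acids. HFHC is given by its abbreviation only, and age, sex, dose and duration are not given in the sources used here. All 4 groups shared the wild-type genotype and an ASO, and no untreated liver enters a comparison.

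Bile acids are made from cholesterol in hepatocytes, secreted into bile, reabsorbed in the intestine and taken up again from portal blood. At the sinusoidal membrane, the sodium-dependent carrier NTCP (Slc10a1) and the sodium-independent organic anion carriers of the Slco family bring bile acids, bilirubin conjugates, steroid conjugates and drugs into the cell. At the canalicular membrane, BSEP (Abcb11) pumps bile salts, MDR2 (Abcb4) flips phosphatidylcholine into bile and MRP2 (Abcc2) exports glutathione and glucuronide conjugates. MRP3 (Abcc3), MRP4 (Abcc4) and the heterodimer of OST-alpha and OST-beta (Slc51b) return bile acids and conjugates to blood and are known for rising in cholestasis. The bile acid receptor FXR (Nr1h4) acts on several of these genes, directly or through the repressor SHP (Nr0b2).

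Promoters of 4 members are shown because these genes differ in what follows: Slco1a1 and Slco1a4 are related genes on the same strand of chromosome 6 of which Slco1a1 rose on both diets and Slco1a4 passed the test on neither, and Abcb11 and Slc51b are textbook FXR targets. Each sequence is from RefSeq on GRCm38.p6, runs 5′ to 3′ on the minus strand from 250 bases before to 50 bases after the annotated start, and has in capitals the matches to the motifs searched.
Slco1a1 promoter at chr6:141946913-141947212.
Slco1a1: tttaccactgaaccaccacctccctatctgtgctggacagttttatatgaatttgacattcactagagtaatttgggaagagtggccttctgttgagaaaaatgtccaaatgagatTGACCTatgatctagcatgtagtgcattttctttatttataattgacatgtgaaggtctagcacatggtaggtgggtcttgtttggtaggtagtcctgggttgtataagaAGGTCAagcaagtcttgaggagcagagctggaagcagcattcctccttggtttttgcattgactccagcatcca
Slco1a4 promoter at chr6:141856171-141856470.
Slco1a4: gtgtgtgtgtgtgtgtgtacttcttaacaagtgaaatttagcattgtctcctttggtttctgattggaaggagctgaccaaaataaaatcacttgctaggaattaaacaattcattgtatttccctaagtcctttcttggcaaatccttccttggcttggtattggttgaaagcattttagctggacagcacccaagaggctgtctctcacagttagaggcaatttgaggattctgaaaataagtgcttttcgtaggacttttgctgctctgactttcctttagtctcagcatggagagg
Abcb11 promoter at chr2:69342567-69342866.
Abcb11: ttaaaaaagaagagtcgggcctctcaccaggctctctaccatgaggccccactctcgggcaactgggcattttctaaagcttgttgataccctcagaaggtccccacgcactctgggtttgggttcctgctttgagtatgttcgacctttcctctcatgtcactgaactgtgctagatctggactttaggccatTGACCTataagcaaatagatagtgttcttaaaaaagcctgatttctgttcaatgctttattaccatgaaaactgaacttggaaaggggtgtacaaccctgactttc
Slc51b promoter at chr9:65422724-65423023.
Slc51b: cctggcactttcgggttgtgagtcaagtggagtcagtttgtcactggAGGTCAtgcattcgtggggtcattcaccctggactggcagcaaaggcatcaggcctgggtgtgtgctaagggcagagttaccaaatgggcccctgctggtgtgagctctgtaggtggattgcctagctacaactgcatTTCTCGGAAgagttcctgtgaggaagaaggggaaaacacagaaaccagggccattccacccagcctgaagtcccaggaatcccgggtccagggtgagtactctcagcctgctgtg
The table held 11 promoters for 9 of the 10 members. The 4 motifs were searched on both strands, and matches could overlap. The nuclear receptor element AGGTCA was found in 6 of the 11 promoters, against 16.3% of all 32851 promoters of this length. Slco1a1 held 2 of these elements, Abcb11 and Slc51b held 1 each, and Slco1a4 held no match to any motif searched. The inverted repeat core GTCANTGAC, a strict form of the FXR element, was found in 0 of the 11, against 0.387% of all promoters. With so rare a motif, 0 of 11 does not show that FXR elements are absent. The antioxidant response element core TGACNNNGC was found in 3 of the 11, in Abcc2 and in both entries of Abcc4, against 12.4% of all promoters. The STAT5 element TTCNNNGAA was found in 4 of the 11, in Slco1b2, Slc51b, Slc10a1 and Abcc4, against 8.30% of all promoters. These matches describe letters in a window and not binding.

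RNA was sequenced after strand-specific mRNA library preparation, and the values are read counts per gene scaled by TMM factors within each diet's table. On HFHC, the columns of Mdm2 ASO replicates 6 and 7 were identical and counted once, as library 6-7, which left 17 libraries from 18 samples. On HFHC there were 4 controls and 3 Mdm2 ASO libraries of 17.8 to 18.8 M reads, and on CDAHFD 5 and 5 of 22.4 to 31.5 M reads. Libraries are listed below in the order 1, 2, 4 and 5 against 6-7, 9 and 10 on HFHC, and 1 to 5 against 6 to 10 on CDAHFD. The labels do not say that samples came from separate mice, so p-values measure the spread between these libraries, which may in part be technical. Mdm2, which checks the labels, was 907, 954, 963 and 956 in controls and 420.4, 362 and 304 after the Mdm2 ASO on HFHC. On CDAHFD it was 1443, 1572, 1516, 1649.9 and 1644 in controls and 861, 566, 646, 564 and 598 after the Mdm2 ASO. The groups did not overlap on either diet, and 38.3% and 41.3% of the control level remained (log2 ratio -1.39 ± 0.11 SE, adjusted p = 1.1e-05 and log2 ratio -1.29 ± 0.11 SE, adjusted p = 3.1e-05). Two-sided permutation tests, exact over all regroupings, gave p = 0.0286 on HFHC and 0.00794 on CDAHFD, the smallest that 35 and 252 regroupings allow. Hepatocyte markers made up at least 10.2% and 10.1% of the normalized counts of every control library on HFHC and CDAHFD, and the livers expressed all 14 of them.

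On HFHC, 9 of the 10 transporter transcripts passed the test after the Mdm2 ASO: Slc10a1, Slco1a1 and Abcc4 rose, and Slco1b2, Abcb11, Abcb4, Abcc2, Abcc3 and Slc51b fell. Slco1a4 did not pass. On CDAHFD, 2 of the 10 passed: Slco1a1 rose and Abcb4 fell. Log2 ratios throughout set Mdm2 ASO against control ASO on the log2(value + 0.5) scale, where the added 0.5 understates the change of low genes. Multiples and percents of control divide group means, so they can differ from the log2 ratios. A gene rose or fell where the Benjamini-Hochberg adjusted p of limma-trend over all genes tested was under 0.05. All 10 members passed the filter on low values in both tables. Across all genes, 30.6% of 17441 passed on HFHC (16.8% rose and 13.8% fell), and 13.0% of 16803 passed on CDAHFD (6.12% rose and 6.86% fell). The members' 9 of 10 on HFHC stood above that background, and their 2 of 10 on CDAHFD was near it. As the members were chosen with earlier results of these data known, this describes the list and is not an independent test. The median log2 ratio of the 10 members was -0.38 on HFHC and -0.20 on CDAHFD, beside -0.006 and -0.002 over all genes tested. In 9 members on HFHC and in 1 on CDAHFD the groups did not overlap, beside 38.7% and 10.6% of all genes tested. Scaling each library to its hepatocyte markers left 7 of the members called on HFHC (3 rose and 4 fell) and 1 on CDAHFD, and quantile normalization left 7 (2 rose and 5 fell) and 3. Over all genes the split of 2932 higher and 2399 lower calls on HFHC became 2482 and 3725 under quantile normalization and 2438 and 823 under hepatocyte marker scaling. In bulk liver, fewer cells of a type and less RNA per cell cannot be told apart.

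**Figure D1:**
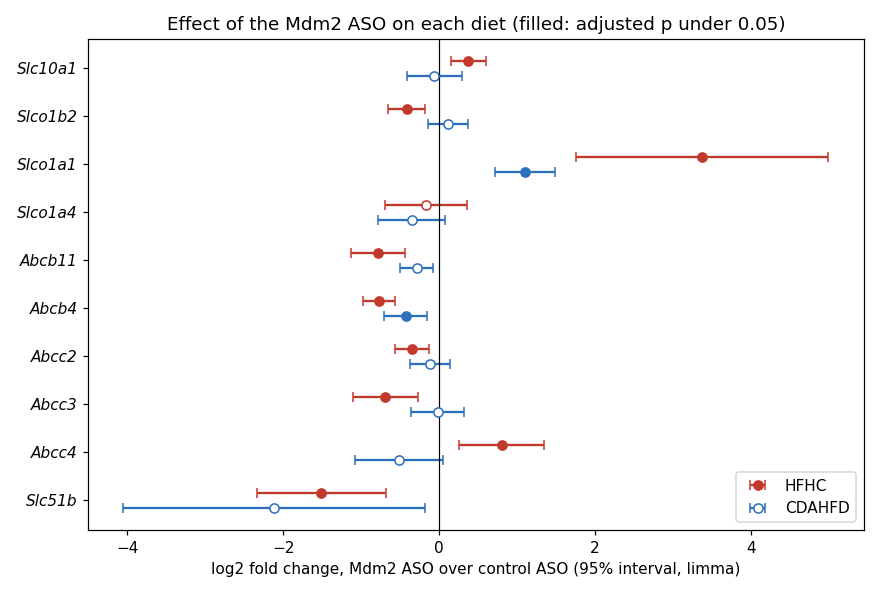
Log2 ratio of each transporter transcript, Mdm2 ASO over control ASO (x axis), on HFHC (red, 4 against 3 libraries) and CDAHFD (blue, 5 against 5 libraries), with 95% intervals from limma and filled points for adjusted p under 0.05. Slco1a1 lies to the right of 0 on both diets, at 3.37 and 1.10, and Abcb4 to the left on both, at -0.77 and -0.43.

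Among the uptake carriers, Slco1a1 had the largest increase of the members on HFHC and was the member that rose on both diets, while Slc10a1 rose and Slco1b2 fell on HFHC. Slco1a1 (ENSMUSG00000041698) encodes OATP1A1, a carrier of bile acids and steroid conjugates that is more abundant in male than in female mouse liver. On HFHC, its normalized counts were 597, 51.6, 66.9 and 153 in controls and 2225, 975 and 1231 after the Mdm2 ASO. The groups did not overlap, but control library 1 was several times higher than the other controls and library 6-7 was highest of all. The mean went from 217 ± 257 (SD, n = 4) to 1477 ± 661 (SD, n = 3), 6.81 times the control mean (log2 ratio 3.37 ± 0.72 SE, adjusted p = 0.00666). The interval of the log2 ratio was wide, from 1.75 to 4.99. On CDAHFD, Slco1a1 was 1597, 1474, 859.6, 1031 and 1167 in controls and 3186, 2545, 3135, 2478 and 1767 after the Mdm2 ASO. Every Mdm2 ASO library was above every control, the closest being library 10. The mean rose from 1226 ± 306 (SD, n = 5) to 2622 ± 579 (SD, n = 5) (log2 ratio 1.10 ± 0.18 SE, adjusted p = 0.00179, interval 0.72 to 1.49). That call did not hold when all 17 libraries shared 1 estimate of the spread (adjusted p = 0.0989).

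Slc10a1 (ENSMUSG00000021135), which encodes NTCP, the main carrier of conjugated bile acids into hepatocytes, was 5547, 5679, 5829 and 5699 in controls and 6369.7, 7671 and 8207 after the Mdm2 ASO on HFHC. All 3 Mdm2 ASO libraries were above the 4 controls, which lay close together. The mean rose from 5689 ± 115 (SD, n = 4) to 7416 ± 945 (SD, n = 3), 130.4% of control (log2 ratio 0.37 ± 0.10 SE, adjusted p = 0.0172). The call was lost without Mdm2 ASO replicate 9 (0.35, adjusted p = 0.0736) and in 1 fit over all libraries (adjusted p = 0.133). On CDAHFD, Slc10a1 was 7068, 6932, 4167, 6075 and 4077 in controls and 6452, 5317, 5495, 5162 and 4123 after the Mdm2 ASO, and the Mdm2 ASO values lay within the range of the controls. Its log2 ratio there was -0.07 ± 0.16 (SE; adjusted p = 0.830), with an interval from -0.42 to 0.29, and the sign turned under hepatocyte marker scaling (0.13).

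Slco1b2 (ENSMUSG00000030236) encodes OATP1B2, the rodent counterpart of the human hepatic carriers OATP1B1 and OATP1B3. On HFHC it was 15443, 16771, 16952 and 16309.6 in controls and 10965, 12664 and 13208 after the Mdm2 ASO. Every Mdm2 ASO library was below every control, and the mean fell from 16369 ± 674 (SD, n = 4) to 12279 ± 1170.2 (SD, n = 3), or 75.0% of control (log2 ratio -0.42 ± 0.10 SE, adjusted p = 0.0140). Under hepatocyte marker scaling the decrease was 0.32 and did not pass (adjusted p = 0.175). On CDAHFD, Slco1b2 was 21771, 17513, 15274, 18991 and 15708 against 16720.4, 18641, 23214, 19704 and 18254, with overlapping groups and a log2 ratio of 0.12 ± 0.12 (SE; adjusted p = 0.568).

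Slco1a4 (ENSMUSG00000030237) encodes OATP1A4, a carrier of bile acids and digoxin that is known to respond to the xenobiotic receptor PXR. On HFHC it was 1495, 2269, 2157 and 1951 in controls and 2275, 1118 and 2028 after the Mdm2 ASO, with library 9 the lowest and library 6-7 the highest of all 7. The log2 ratio was -0.17 ± 0.23 (SE; adjusted p = 0.622), with an interval from -0.69 to 0.35, and it turned to 0.14 without library 9. On CDAHFD, Slco1a4 ranged from 2628 to 6299.9 in control ASO and from 2570.2 to 4208 in Mdm2 ASO libraries (log2 ratio -0.35 ± 0.20 SE, adjusted p = 0.265, interval -0.78 to 0.07). The Slco1a1 and Slco1a4 exons share few sequences: 1.64% and 1.61% of their 50-base words also occur in other genes, Slco1a relatives among them.

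**Figure D2:**
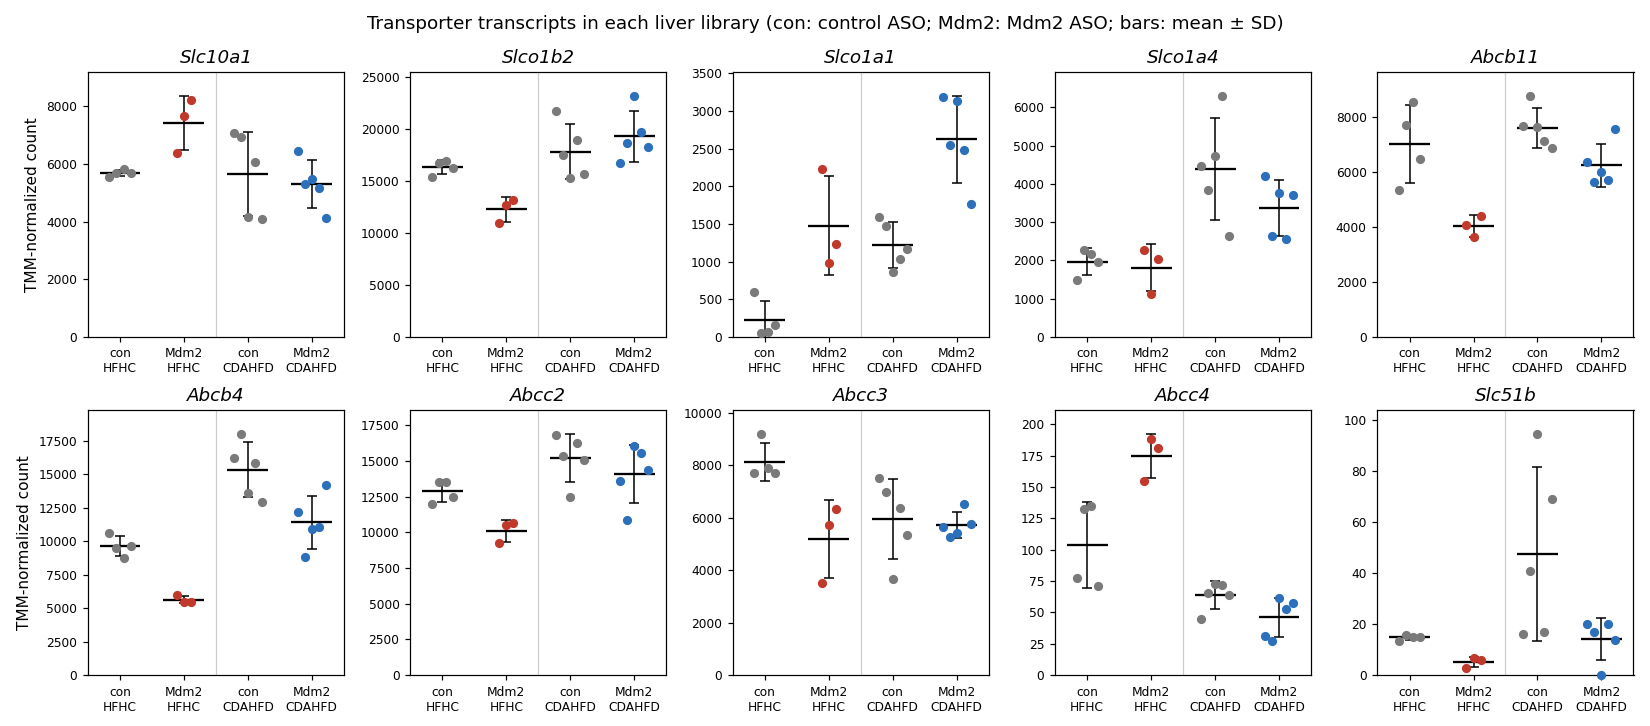
TMM-normalized count (y axis, from 0, own scale per gene) of each of the 10 transcripts in each library, by group (x axis), with mean and SD. The tables of the 2 diets were normalized separately, so red and blue points are compared with the grey points of their own diet, as for Slco1a1, where the Mdm2 ASO libraries lie above the controls on both.

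All 3 canalicular pumps fell on HFHC, and Abcb4 fell on CDAHFD too. Abcb4 (ENSMUSG00000042476), the phospholipid floppase that protects the bile duct lining from bile salts, was 10613, 9469, 8768 and 9641 in controls and 5952, 5487 and 5452 after the Mdm2 ASO on HFHC. The 3 Mdm2 ASO libraries lay close together and far below the lowest control. The mean fell from 9623 ± 760.5 (SD, n = 4) to 5630.2 ± 279 (SD, n = 3), 58.5% of control, and its adjusted p was the smallest of the members (log2 ratio -0.77 ± 0.09 SE, adjusted p = 2.1e-04). It passed in all 18 alternatives on HFHC, with log2 ratios from -0.81 to -0.65. On CDAHFD, Abcb4 was 16235, 17974, 13596, 15842 and 12924 in controls and 12205, 8785, 10884, 11015 and 14164 after the Mdm2 ASO. Library 10 of the Mdm2 ASO group exceeded 2 of the controls, so the groups overlapped. The mean went from 15314 ± 2053 (SD, n = 5) to 11410.5 ± 1971 (SD, n = 5) (log2 ratio -0.43 ± 0.13 SE, adjusted p = 0.0404). This call was close to the threshold: it was lost in 10 of 20 alternatives, among them those without control ASO replicates 1 (adjusted p = 0.0805), 2 (0.112) or 4 (0.0890) and without Mdm2 ASO replicates 6 (0.0525), 7 (0.0936), 8 (0.0870) or 9 (0.0726). Of the 50-base words of its exons, 2.83% also occur in other genes, Abcb1a and Abcb1b among them.

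Abcb11 (ENSMUSG00000027048), the bile salt export pump, was 5328, 7716, 8536 and 6449 in controls and 4051, 3632 and 4397 after the Mdm2 ASO on HFHC. The controls spread widely, and the lowest of them, library 1, was still above all 3 Mdm2 ASO libraries. The mean fell from 7007 ± 1411 (SD, n = 4) to 4027 ± 383 (SD, n = 3), 57.5% of control (log2 ratio -0.78 ± 0.15 SE, adjusted p = 0.00438), and the call held in all 18 alternatives. On CDAHFD, Abcb11 was 7661, 8753, 7614, 7109.6 and 6845 in controls and 6336, 5622, 5977, 5698 and 7544 after the Mdm2 ASO. All Mdm2 ASO libraries except library 10 were below every control. The log2 ratio there was -0.29 ± 0.10 (SE; adjusted p = 0.0674) and did not pass, with an interval from -0.50 to -0.08. Without Mdm2 ASO replicate 10 it passed (-0.36, adjusted p = 0.0214), as it did under quantile normalization (adjusted p = 0.0371) and with DESeq2 (adjusted p = 0.0401).

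Abcc2 (ENSMUSG00000025194), the export pump for bilirubin glucuronides and glutathione conjugates, was 12000.5, 13519.6, 13500.2 and 12489 in controls and 9239, 10480.5 and 10633 after the Mdm2 ASO on HFHC. The groups did not overlap, and the mean fell from 12877 ± 757 (SD, n = 4) to 10117 ± 765 (SD, n = 3), 78.6% of control (log2 ratio -0.35 ± 0.10 SE, adjusted p = 0.0241). This was the smallest decrease of the 6, and the call was lost without control ASO replicates 2 (adjusted p = 0.0543), 4 (0.0708) or 5 (0.0511), without Mdm2 ASO replicates 6-7 (0.0614) or 9 (0.0613), under quantile normalization (0.0723) and under hepatocyte marker scaling (0.273). On CDAHFD, Abcc2 ranged from 12471 to 16836 in control ASO and from 10863 to 16057 in Mdm2 ASO libraries (log2 ratio -0.11 ± 0.12 SE, adjusted p = 0.574, interval -0.37 to 0.14), and the sign turned under hepatocyte marker scaling (0.08).

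The 3 basolateral exporters did not move together on HFHC: Abcc3 and Slc51b fell and Abcc4 rose, and none of them passed on CDAHFD. Abcc3 (ENSMUSG00000020865), which exports glucuronides and bile acids to blood, was 7687, 9182, 7904 and 7720.1 in controls and 3492, 5708 and 6332 after the Mdm2 ASO on HFHC. Library 6-7 was far below the other 2 Mdm2 ASO libraries, and all 3 were below the controls. The mean fell from 8123 ± 712 (SD, n = 4) to 5177 ± 1492 (SD, n = 3), 63.7% of control (log2 ratio -0.69 ± 0.18 SE, adjusted p = 0.0188). Without library 6-7 the decrease was 0.43 and still passed, and in limma without the trend the call was lost (adjusted p = 0.0603). On CDAHFD, Abcc3 was 7497, 6968, 3647, 6379.7 and 5339 in controls and 5631, 5263, 5416, 6532 and 5746 after the Mdm2 ASO, with the Mdm2 ASO values inside the range of the controls. Its log2 ratio there was -0.02 ± 0.16 (SE; adjusted p = 0.947), with an interval from -0.36 to 0.32 and a sign that turned under hepatocyte marker scaling (0.18).

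Abcc4 (ENSMUSG00000032849), an exporter of bile acids with glutathione and of cyclic nucleotides, was low: 77.4, 132, 135 and 71.0 in controls and 155, 188 and 181 after the Mdm2 ASO on HFHC. The controls split into a lower and a higher pair, and the higher pair was still below all 3 Mdm2 ASO libraries. The mean rose from 104 ± 34.4 (SD, n = 4) to 175 ± 17.6 (SD, n = 3), 168% of control (log2 ratio 0.80 ± 0.24 SE, adjusted p = 0.0331). The call was lost without control ASO replicates 1 (adjusted p = 0.0729) or 5 (0.0739), without Mdm2 ASO replicates 9 (0.114) or 10 (0.0841), under quantile normalization (0.114), in limma without the trend (0.0771) and in 1 fit over all libraries (0.0504). On CDAHFD, Abcc4 was 45.1, 65.7, 72.5, 71.7 and 63.6 in controls and 31.4, 27.2, 61.2, 52.6 and 57.7 after the Mdm2 ASO, with overlapping groups and a log2 ratio of -0.52 ± 0.26 (SE; adjusted p = 0.216).

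Slc51b (ENSMUSG00000053862), which encodes the beta subunit of the organic solute transporter, was near the limit of detection. On HFHC it had 13 to 15 reads per control ASO library and 3 to 7 per Mdm2 ASO library, which gave normalized counts of 13.4, 15.7, 15.1 and 15.0 against 2.78, 6.62 and 6.06. The groups did not overlap, and the mean fell from 14.8 ± 0.979 (SD, n = 4) to 5.15 ± 2.08 (SD, n = 3), 34.8% of control (log2 ratio -1.51 ± 0.37 SE, adjusted p = 0.0125). In 1 fit over all libraries the call was lost (adjusted p = 0.267). On CDAHFD, Slc51b was 16.1, 40.7, 94.5, 16.9 and 69.2 in controls and 19.9, 16.7, 0, 20.1 and 13.6 after the Mdm2 ASO. Control libraries 2, 3 and 5 were above every Mdm2 ASO library, and control libraries 1 and 4 were not. Mdm2 ASO library 8 had 0 reads, where 3 reads would have given a normalized count of 3.40. The log2 ratio was -2.12 ± 0.90 (SE; adjusted p = 0.139) with limma, with an interval from -4.05 to -0.19. Bile duct cells also express this subunit. The summed level of cholangiocyte markers was 5154 to 13402 in HFHC controls and 3260.4 to 4065 after the Mdm2 ASO. Spp1 was the largest part of that sum, with means of 6205 ± 3232 (SD, n = 4) and 1969 ± 441 (SD, n = 3). The part of these markers in the decrease of Slc51b on HFHC was not tested. On CDAHFD, Slc51b passed with DESeq2 (-1.75, adjusted p = 0.0213), and without library 8 it was -1.09.

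In the Mdm2 ASO group on HFHC, library 6-7 had the lowest value of the 3 for Slc10a1, Slco1b2, Abcc2, Abcc3, Abcc4 and Slc51b, and the highest for Slco1a1, Slco1a4 and Abcb4. In Abcb11 it lay in the middle. As this library stands for 2 deposited samples, the calls were also counted without it, and 8 of the members passed. They were 6 without Mdm2 ASO library 9 and 7 or 8 without any other library of HFHC. Among HFHC controls, libraries 1 and 5 were below libraries 2 and 4 for Slco1b2, Slco1a4, Abcb11, Abcc2, Abcc3, Abcc4 and Slc51b. For Slco1a1 and Abcb4 libraries 1 and 5 were above them, and for Slc10a1 these pairs were not separated. On CDAHFD, Mdm2 ASO library 10 had the lowest value of its group for Slc10a1 and Slco1a1 and the highest for Abcb11 and Abcb4.

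The effect of the Mdm2 ASO differed between diets for 3 of the 10 members: Slco1b2, Slco1a1 and Abcc4. The test was an interaction contrast, in which the log2 ratio on HFHC is subtracted from that on CDAHFD, and 23.5% of 16333 genes passed (9.83% with a higher and 13.6% with a lower effect on CDAHFD). For Slco1b2 the contrast was 0.53 ± 0.17 (SE; adjusted p = 0.0273), from a decrease on HFHC and a value on CDAHFD that did not pass. It was lost without control ASO replicate 4 on HFHC (0.52, adjusted p = 0.0528) and without library 6-7 (0.46, adjusted p = 0.0825). For Abcc4 it was -1.32 ± 0.38 (SE; adjusted p = 0.0178), from an increase on HFHC and a value below 0 on CDAHFD that did not pass, and it held in all 27 alternatives. For Slco1a1 it was -2.27 ± 0.71 (SE; adjusted p = 0.0263), both effects being increases. The contrast of Slco1a1 did not pass with edgeR (-1.64, adjusted p = 0.0888), with DESeq2 (-1.65, adjusted p = 0.127), in limma without the trend (adjusted p = 0.0544), or without control ASO replicates 2 (-1.82, adjusted p = 0.0554) or 4 (-1.94, adjusted p = 0.0624) or library 6-7 (-1.93, adjusted p = 0.0812) on HFHC. Abcb11 (0.49 ± 0.18 SE, adjusted p = 0.0572) and Abcc3 (0.67 ± 0.27 SE, adjusted p = 0.0774) did not pass. Abcb11 did in 6 of 27 alternatives, edgeR (adjusted p = 0.0427) and DESeq2 (adjusted p = 0.0244) among them, and Abcc3 in 4 of 27, with adjusted p from 0.0312 to 0.267 over all of them. The contrasts of Slc10a1 (-0.44 ± 0.23 SE, adjusted p = 0.188), Abcb4 (0.34 ± 0.18 SE, adjusted p = 0.187), Abcc2 (0.23 ± 0.17 SE, adjusted p = 0.340), Slco1a4 (-0.18 ± 0.34 SE, adjusted p = 0.755) and Slc51b (-0.60 ± 1.26 SE, adjusted p = 0.781) did not pass, which does not show that these effects were alike. That of Slc10a1 passed under quantile normalization (-0.60, adjusted p = 0.0329). Mdm2 itself had a contrast of 0.10 ± 0.17 (SE; adjusted p = 0.705).

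Levels of the members were ordered by normalized count per kilobase of exon, a level per length and not a difference. In HFHC control ASO livers, Slco1b2 was highest at 3321 ± 137 per kb, followed by Slc10a1 at 2587 ± 52.5, and the libraries of these 2 did not overlap. Abcc2 (1509 ± 88.7), Abcc3 (1426 ± 125), Abcb11 (1362 ± 274) and Abcb4 (1026 ± 81.1) came next, each overlapping its neighbour. Slco1a4 (307 ± 53.3) followed, and Slco1a1 (41.1 ± 48.7), Slc51b (20.9 ± 1.38) and Abcc4 (16.3 ± 5.39) were lowest and overlapped. In HFHC Mdm2 ASO livers the first 2 places were exchanged: Slc10a1 was at 3372 ± 429.7 and Slco1b2 at 2491 ± 237, again without overlap. There Slco1a1 (280.0 ± 125) overlapped Slco1a4 (282 ± 95.02), and Slc51b (7.27 ± 2.93) was below Abcc4 (27.3 ± 2.76). On CDAHFD, Slco1b2 (3622 ± 537) and Slc10a1 (2576 ± 663) headed the order in control ASO livers with overlapping libraries, and Slco1b2 (3917 ± 494) was above Slc10a1 (2415 ± 378) without overlap in Mdm2 ASO livers. Abcb4 ranked above Abcb11 and Abcc3 in CDAHFD control ASO livers, at 1632 ± 219 against 1476 ± 142 and 1047 ± 267, and the libraries of Abcb4 and Abcb11 overlapped. Slco1a1 at 232 ± 58.1 was below Slco1a4 at 685 ± 209 in these controls without overlap, whereas in the Mdm2 ASO livers both overlapped, at 497 ± 109.7 and 526 ± 114. Abcc4 had the lowest mean on CDAHFD, at 9.97 ± 1.74 in control ASO and 7.21 ± 2.45 in Mdm2 ASO livers. In the latter its libraries overlapped those of Slc51b (19.8 ± 11.7).

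**Figure D3:**
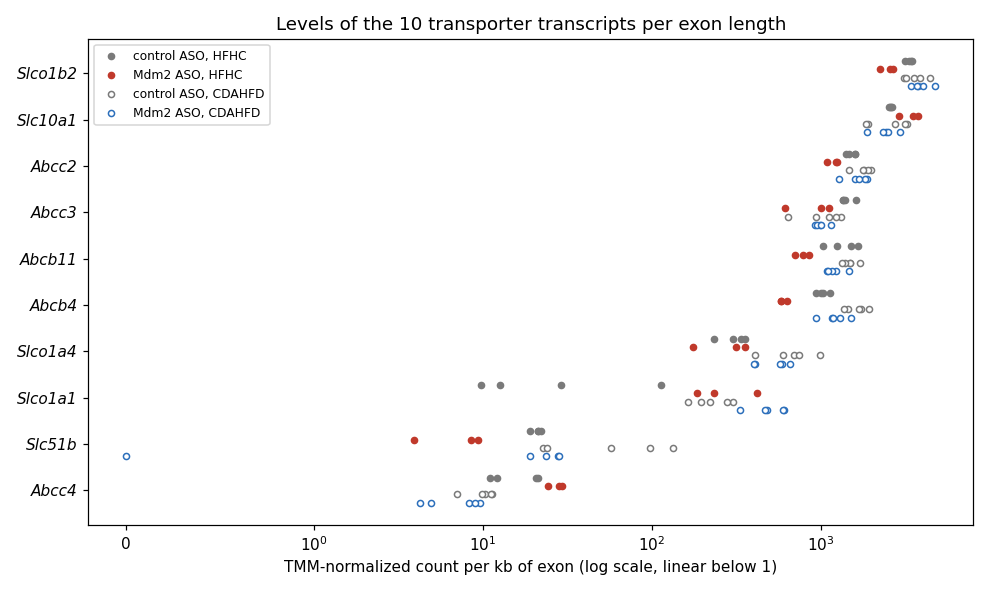
Normalized count per kb of exon (x axis, log scale, linear below 1) of each transcript in each library, with filled points for HFHC and open points for CDAHFD, ordered by the HFHC control ASO mean. By HFHC control mean, Slco1b2 and Slc10a1 are highest and Slc51b and Abcc4 lowest, and the point at 0 is Mdm2 ASO library 8 on CDAHFD.

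Other carriers and pumps changed in both directions on HFHC: of 22 tested, 5 rose and 6 fell, with a median of 0.06. Under hepatocyte marker scaling 4 rose and 0 fell. The increases of smallest p were in Slco4a1, a carrier of thyroid hormone, which went from 7.15 ± 1.11 to 161 ± 14.7 (log2 ratio 4.41 ± 0.23 SE, adjusted p = 9.3e-07), Abcc1, the exporter MRP1, from 87.7 ± 5.56 to 298 ± 11.1 (log2 ratio 1.76 ± 0.11 SE, adjusted p = 3.2e-06), and Abcb1b, a multidrug pump, from 27.4 ± 12.4 to 202 ± 11.2 (log2 ratio 2.96 ± 0.30 SE, adjusted p = 7.7e-05). Abcc9, a subunit of potassium channels, rose by 0.87 ± 0.15 (SE; adjusted p = 0.00193) on the log2 scale. On CDAHFD, 4 of 21 rose and 1 fell, with a median of 0.10, which became 7 and 1 under that scaling. Abcg5 and Abcg8, the 2 subunits of the canalicular sterol exporter, rose there from 2027 ± 532 to 4301 ± 738 (log2 ratio 1.11 ± 0.17 SE, adjusted p = 0.00134) and from 1715 ± 455 to 2906 ± 389 (log2 ratio 0.80 ± 0.18 SE, adjusted p = 0.0110). Slc47a1, the cation exporter MATE1, rose by 0.58 ± 0.12 (SE; adjusted p = 0.00714), and Slco2a1, a prostaglandin carrier, fell by 0.70 ± 0.16 (SE; adjusted p = 0.0120). The effects of Slco4a1 and Abcb1b differed between diets, with contrasts of -4.09 ± 0.47 (SE; adjusted p = 4.6e-06) and -2.99 ± 0.39 (SE; adjusted p = 1.9e-05).

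Of 11 genes listed for the anchoring or trafficking of membrane proteins, 3 rose and 3 fell on HFHC, with a median of -0.03. Under hepatocyte marker scaling 2 rose and 0 fell. Msn and Ezr, which encode the membrane linkers moesin and ezrin, rose from 748 ± 78.5 to 3948 ± 375 and from 213 ± 68.8 to 883 ± 91.0 (log2 ratios 2.40 ± 0.10 SE, adjusted p = 3.1e-07 and 2.10 ± 0.22 SE, adjusted p = 1.1e-04). Hax1, which binds canalicular pumps, and Myo5b, the motor of apical recycling, fell by 0.45 ± 0.09 (SE; adjusted p = 0.00446) and 0.46 ± 0.11 (SE; adjusted p = 0.0111), calls that were lost under hepatocyte marker scaling, as were those of Pdzk1 (adjusted p = 0.484) and Vipas39 (adjusted p = 0.148). On CDAHFD, 1 of 11 passed, Vipas39, a partner of the trafficking protein VPS33B, which rose by 0.41 ± 0.08 (SE; adjusted p = 0.00522). The contrasts between diets of Msn and Ezr were -2.62 ± 0.31 (SE; adjusted p = 6.9e-06) and -1.77 ± 0.32 (SE; adjusted p = 5.3e-04).

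Among receptors and regulators, 5 of 21 fell and 0 rose on HFHC, and 3 fell and 2 rose on CDAHFD, with medians of -0.11 and -0.16. Under hepatocyte marker scaling, 4 fell and 0 rose on HFHC, and on CDAHFD the balance turned to 1 fallen and 4 risen, with a median of 0.03. Nr1h4, which encodes the bile acid receptor FXR, was 3434, 3285, 2972 and 3352 in controls and 2777, 3312 and 2579 after the Mdm2 ASO on HFHC, with overlapping groups (log2 ratio -0.18 ± 0.10 SE, adjusted p = 0.201). On CDAHFD it rose, from 4459.8, 3762, 3798, 3773 and 4424 to 4972, 5680.4, 5564, 4819.7 and 4547, with no overlap (log2 ratio 0.34 ± 0.09 SE, adjusted p = 0.0221). Its effect differed between diets (0.52 ± 0.13 SE, adjusted p = 0.00884), a contrast that did not pass under hepatocyte marker scaling (adjusted p = 0.0517). Nr0b2, the FXR target that encodes the repressor SHP, was 958, 1622, 1661 and 1015 in controls and 871, 921 and 528 after the Mdm2 ASO on HFHC and fell (log2 ratio -0.76 ± 0.25 SE, adjusted p = 0.0440). On CDAHFD the log2 ratio of Nr0b2 was -0.26 ± 0.25 (SE; adjusted p = 0.537) and did not pass. Nr1i3, which encodes the xenobiotic receptor CAR, did not pass on HFHC (-0.18 ± 0.21 SE, adjusted p = 0.543) or on CDAHFD (0.08 ± 0.12 SE, adjusted p = 0.687). S1pr2, a receptor for conjugated bile acids, fell from 329 ± 46.0 to 145 ± 14.4 on HFHC and from 291 ± 48.3 to 141 ± 15.2 on CDAHFD (log2 ratios -1.17 ± 0.13 SE, adjusted p = 1.7e-04 and -1.04 ± 0.14 SE, adjusted p = 5.3e-04). Stat5a, a gene of the STAT5 family, fell on HFHC by 0.75 ± 0.09 (SE; adjusted p = 3.1e-04) and on CDAHFD by 0.47 ± 0.11 (SE; adjusted p = 0.0122), the latter lost under hepatocyte marker scaling.

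Of the bile acid synthesis genes, 8 of 18 fell on HFHC and 0 rose, with a median of -0.36. Cyp46a1, a cholesterol 24-hydroxylase, fell there from 404 ± 71.0 to 125 ± 50.7 (log2 ratio -1.77 ± 0.28 SE, adjusted p = 0.00130) and rose on CDAHFD from 77.0 ± 24.4 to 159 ± 58.6 (log2 ratio 1.01 ± 0.28 SE, adjusted p = 0.0267), with a contrast of 2.78 ± 0.44 (SE; adjusted p = 1.4e-04). Hsd17b4, which shortens the side chain in peroxisomes, and Baat, which conjugates bile acids to taurine and glycine, fell on HFHC by 0.68 ± 0.11 (SE; adjusted p = 0.00131) and 0.42 ± 0.10 (SE; adjusted p = 0.0127). On CDAHFD, 2 of 18 fell and 1 rose, with Akr1d1, the bile acid 5-beta-reductase, down by 0.47 ± 0.09 (SE; adjusted p = 0.00557) and Cyp2c70, which makes muricholic acids, down by 0.60 ± 0.14 (SE; adjusted p = 0.0128). Under hepatocyte marker scaling the synthesis counts became 3 fallen and 0 risen on HFHC and 0 fallen and 2 risen on CDAHFD, and the calls of Baat, Akr1d1 and Cyp2c70 were lost. Of the genes that conjugate or detoxify bile acids, 5 of 11 fell on HFHC and 0 rose, led by Ugt2b5 and Gsta1 at log2 ratios of -0.86 ± 0.14 (SE; adjusted p = 0.00167) and -2.60 ± 0.53 (SE; adjusted p = 0.00503). On CDAHFD, 2 of 12 fell and 1 rose, which became 1 and 4 under hepatocyte marker scaling. Among targets of NRF2, the factor that acts on the basolateral exporters in oxidative stress, 9 of 12 fell on HFHC and 1 rose: Srxn1 was at -0.88 ± 0.14 (SE; adjusted p = 0.00136) and Hmox1 at 2.38 ± 0.15 (SE; adjusted p = 3.9e-06). On CDAHFD, 3 of 12 fell, Hmox1 among them (-0.76 ± 0.19 SE, adjusted p = 0.0181), and 0 rose. Under hepatocyte marker scaling 1 fell, and the calls of Hmox1 (-0.57, adjusted p = 0.0852) and Srxn1 (-0.16, adjusted p = 0.413) on CDAHFD were lost.

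Genes with sex-biased expression in mouse liver are given because Slco1a1 is one of them. Of 15 male-biased genes, 3 rose and 5 fell on HFHC, and 2 rose and 0 fell on CDAHFD. Hsd3b5, a male-biased steroid dehydrogenase, rose on both diets, from 2.08 ± 1.49 to 131 ± 135 and from 50.7 ± 43.7 to 637 ± 276 (log2 ratios 5.37 ± 0.92 SE, adjusted p = 0.00198 and 3.87 ± 0.54 SE, adjusted p = 7.2e-04). Mup20, a male-biased urinary protein gene, fell on HFHC from 88140.4 ± 26854 to 27443 ± 3975 (log2 ratio -1.65 ± 0.24 SE, adjusted p = 8.7e-04). Of the female-biased genes, 1 of 13 rose on HFHC, Abcd2, a peroxisomal fatty acid transporter (0.37 ± 0.12 SE, adjusted p = 0.0406). That call was lost under hepatocyte marker scaling (adjusted p = 0.0686), where 0 passed, and under quantile normalization (adjusted p = 0.0924), where 0 rose and 2 fell. On CDAHFD 1 of 14 fell, and Cyp17a1 was at -1.09 ± 0.20 (SE; adjusted p = 0.00330).

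Markers of other cells moved with the HFHC comparison. Of 13 markers of monocytes and neutrophils, 10 rose, and their summed level was 4191 to 7357 in control ASO and 28881 to 34079 in Mdm2 ASO libraries. Of 11 Kupffer cell markers 7 rose (8620.0 to 14236 against 33975 to 39298), of 13 endothelial markers 9 (6293 to 7011 against 9953 to 11165), of 12 stellate cell markers 9 (8741 to 11774 against 16714 to 18053), of 8 platelet markers 8 (217 to 267 against 1077 to 1898) and of 7 red blood cell markers 7 (2604 to 5422 against 11572 to 31522). Of 14 cholangiocyte markers 7 fell and 0 rose. Hepatocyte markers passed in 0 of 14 on HFHC with limma (1 at an unadjusted p under 0.05), with a median of -0.12. They passed in 1 with edgeR (fallen), in 5 with DESeq2 (1 risen and 4 fallen) and in 2, both risen, under quantile normalization. For some of them the groups did not overlap although none passed with limma, beside 38.7% of all genes tested without overlap. Transcripts of the mitochondrial genome fell in 10 of 13 (summed level 1228740 to 1506260 against 662299 to 774013). Of 12 pericentral markers 4 fell and of 12 periportal markers 3 fell, with medians of -0.58 and 0.18. Of 5 tested markers of kidney, gut and pancreas, 3 fell, and 0 under hepatocyte marker scaling. On CDAHFD the corresponding counts were 0 of 13 for monocytes and neutrophils (5737 to 11423 against 4091 to 11639), 1 of 11 fallen for Kupffer cells, 2 of 13 risen for endothelial cells, 1 of 12 risen for stellate cells, 2 of 7 risen for platelets, 0 of 6 for red blood cells, 0 of 14 for cholangiocytes (5183 to 13320 against 8635 to 13699), 2 of 14 fallen for hepatocytes, 2 of 12 risen for pericentral and 3 of 12 fallen for periportal markers, 1 of 5 risen for kidney, gut and pancreas, and 1 of 13 risen for mitochondrial transcripts. Hepatocyte markers on CDAHFD had 5 fallen under quantile normalization, 4 fallen and 1 risen with edgeR, and 5 fallen and 1 risen with DESeq2. The counts of 0 on CDAHFD were 0 with edgeR and DESeq2 too, and at an unadjusted p under 0.05 with limma they were 2 for monocytes and neutrophils, 1 for red blood cells and 8 for cholangiocytes. The part of these cell markers and of mitochondrial RNA in the transporter changes was not tested. Under hepatocyte marker scaling on HFHC, 3 members rose, Slco1a1 among them, and 4 fell, Abcb4 and Abcb11 among them. The calls of Slco1b2 (adjusted p = 0.175) and Abcc2 (adjusted p = 0.273) were lost.

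**Figure D4:**
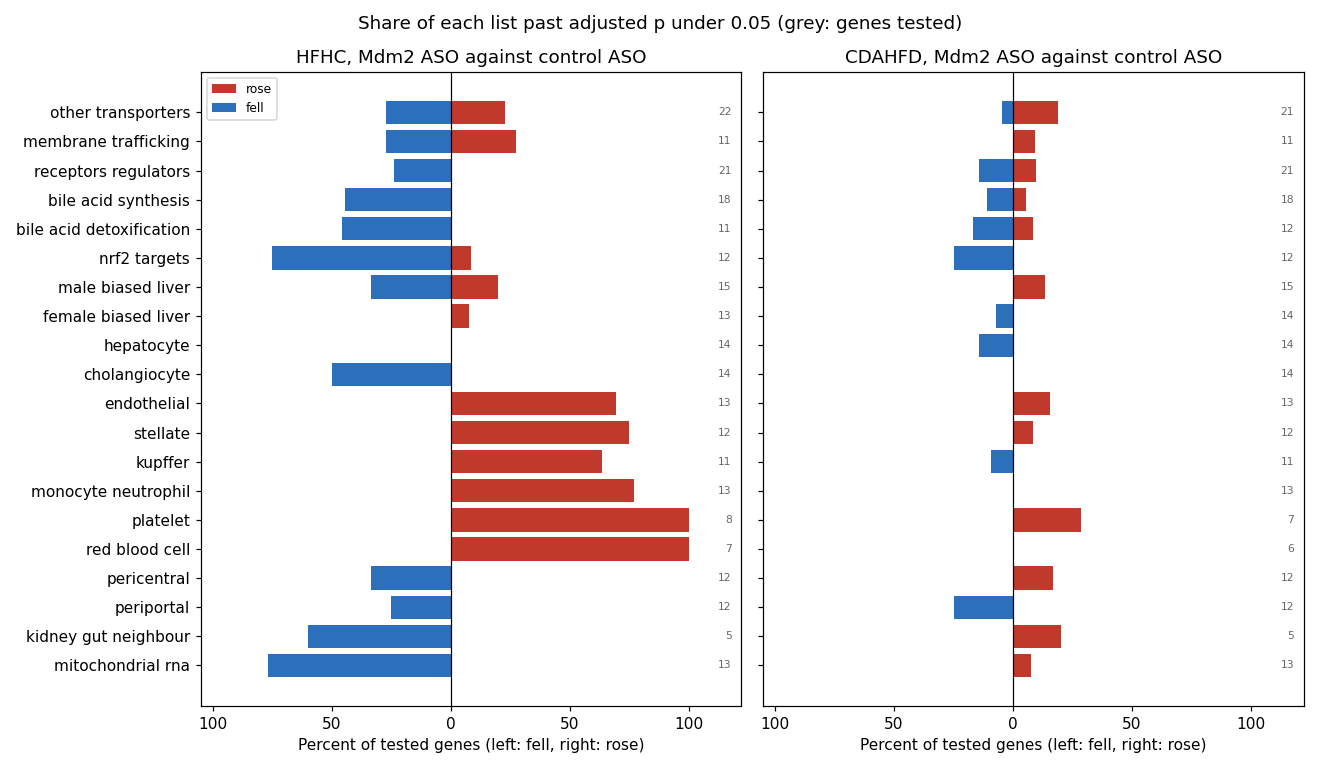
Percent of the tested genes of each list that fell (left of 0) or rose (right of 0) after the Mdm2 ASO on HFHC and CDAHFD (x axis), with the number tested in grey. On HFHC the lists of blood and sinusoidal cells lie to the right and those of bile acid synthesis, detoxification and NRF2 targets to the left, whereas on CDAHFD no list exceeds 2 of 7.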

How the data were processed

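The deposited values are TMM-normalized counts in 2 tables of 33235 genes, one per diet. The unit was taken as a signal scaled by the authors, not as raw counts. Per the submitters' processing notes, STAR 2.7.10b aligned to GRCm39 and featureCounts of Subread 2.0.3 counted. The annotation and strand setting are not given in the sources used here. In every library 100% of values were whole multiples of 1 constant (within 0.001), so reads could be recovered.

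The filter kept genes that reached a value of 1 in a number of libraries equal to the smaller group, and these were tested with limma-trend (limma 3.58.1, R 4.3.3) on log2(value + 0.5), within each diet, with Benjamini-Hochberg adjustment over all genes. Every adjusted p is from limma unless another tool is named. The difference between diets was tested over the 17 libraries. No effect of diet was tested, since the tables were normalized separately. On the recovered reads, edgeR 4.0.16 called 2994 genes higher and 2341 lower on HFHC and 1034 and 1152 on CDAHFD, and DESeq2 1.42.0 called 2915 and 2538, and 1455 and 1501. Other alternatives were pseudocounts, filters, 2 scalings, the spread, and leaving out each library. The lists under other scalings and tools were added after seeing the data. Each model was run on simulated independent counts with planted changes in well-expressed genes. That setting does not cover genes as low as Slc51b, and no result of it is used here.

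The text names the 10 members, Mdm2, Nr1h4, Nr0b2 and Nr1i3, and of each other list up to 4 called genes by p per diet and 2 for the difference. Some are also given on the other diet. Abcb1a is named for shared sequence only, and Pdzk1 for a call lost under hepatocyte marker scaling. Members and lists were chosen with earlier results of these data known. Of 276 list genes, 275 were matched, and a gene listed under both of its symbols was counted once. Exon lengths are unions of exons of the GRCm38 annotation. Promoters came from RefSeq on GRCm38.p6, so no coordinates of the authors' build are given. One member of the list of receptors and regulators is counted with its list but is not reported here by name.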

Additional observations from a re-analysis of the deposited data

Results flagged for a closer look

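Of the 33 groups of 4 or more libraries examined (Mdm2 and the 10 members in 3 groups), 3 held a library far from the others by Dixon's test, and chance gives about 1 in 20. Mdm2 was 907 in HFHC control ASO replicate 1, below the other controls at 954 to 963. Abcc3 was 9182 in HFHC control ASO replicate 2, above the other controls at 7687 to 7904. Mdm2 was 861 in CDAHFD Mdm2 ASO replicate 6, above the others of that group at 564 to 646 and below every control.

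The effect of the Mdm2 ASO differed between diets by the interaction test of limma in 3 of the 10 members, near the 23.5% of all 16333 genes tested. The log2 difference, CDAHFD minus HFHC, was 0.53 for Slco1b2 (adjusted p = 0.0273), -2.27 for Slco1a1 (adjusted p = 0.0263) and -1.32 for Abcc4 (adjusted p = 0.0178). That of Slco1a1 did not pass with edgeR (adjusted p = 0.0888) or DESeq2 (adjusted p = 0.127). All 3 Mdm2 ASO libraries on HFHC lay on 1 side of the 4 controls in each of these genes. The same held for 9 of the 10 members and 38.7% of all genes tested there, and it does not bear on a difference between diets.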

How the results depend on the processing

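On HFHC, 6 to 9 of the 10 members passed in all 18 alternatives, and Abcb11, Abcb4 and Slco1a1 passed in each. On CDAHFD the count of 2 became 1 without a filter on low values, under hepatocyte marker scaling, in limma without the trend and in 1 fit over all libraries, and 4 with DESeq2, and it ranged from 1 to 3 when 1 library was left out. For the difference the count of 3 became 5 under hepatocyte marker scaling and 5 with the identical columns counted as 2, and it ranged from 1 to 4 when 1 library was left out (1 without HFHC control ASO replicate 4 or Mdm2 ASO replicate 6-7). The cause of these shifts was not tested.

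No value past the threshold changed direction. Hepatocyte marker scaling moved the median of all genes by 0.20 on CDAHFD and 0.10 for the difference, and it turned Slc10a1 (0.13), Abcc2 (0.083) and Abcc3 (0.18) on CDAHFD, all still below that shift. Over all genes it turned 1028 higher and 1153 lower calls on CDAHFD into 1983 and 292. Quantile normalization moved the median by -0.11 on HFHC and 0.10 for the difference, where 1606 higher and 2226 lower calls became 2440 and 1961. With 1 library left out, Slc10a1 on CDAHFD ranged from -0.18 to 0.023, Abcc3 on CDAHFD from -0.19 to 0.072, Slco1a4 on HFHC from -0.37 to 0.14, and the differences of Slco1a4 from -0.50 to 0.015, of Mdm2 from -0.016 to 0.22 and of Slc51b from -0.96 to 0.43. Slc51b, at 0 to 103 reads per library, and Abcc4 were low, and the part of depth in their spread was not tested. No paired analysis was possible because the compared groups share no replicate numbers.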
